A study of Mus musculus with 6 samples.

Results

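The cytosolic chaperonin TRiC, also called CCT, is described here through the genes of its subunits, Tcp1, Cct2, Cct3, Cct4, Cct5, Cct6a, Cct7 and Cct8. They were chosen by gene symbol from the deposited expression table, which held all 8 of them among 22899 genes, and all 8 passed the filter on low values that left 10899 genes to be tested. The cells were immature dendritic cells of mouse bone marrow, which sample antigen before they mature. For both groups, marrow of male C57BL/6 mice aged 7 weeks was grown for 7 days with GM-CSF at 20 ng/ml and IL-4 at 10 ng/ml, and cells carrying CD11c were isolated from the suspension. The FSS group (3 libraries) was exposed to fluid shear stress of 10 dyn/cm2 for 3 h in a cone-plate device, and the static group (3 libraries) was cultured without flow. The comparison asks how shear stress changes the messenger RNA of these cells.

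TRiC is a group II chaperonin: stacked rings of related but distinct subunits enclose a chamber in which newly made proteins fold as ATP is hydrolysed. Actin and tubulin are its best known clients, and many proteins with WD40 repeats also depend on it. Prefoldin hands clients to the chamber and phosducin-like proteins assist in it. The mitochondrial chaperonin of HSP60 and HSP10 belongs to the other class, group I. Each TRiC subunit has a fixed place in the ring, so the complex needs every one of them.

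Levels are given as FPKM, the fragments of a gene relative to its transcript length and to all mapped fragments, so that genes can be set side by side. Summed over genes, the libraries held 413898 to 470596 FPKM, and between 10390 and 10959 genes reached 1 FPKM. The number of reads is unknown, so no counting error can be given. Nothing in the labels says whether the libraries of a group came from separate cultures or animals, and the p-values therefore measure only the spread between these libraries, which may be technical. Itgax, the gene of CD11c, was at 537 ± 54.3 FPKM in static and 448 ± 52.6 FPKM in FSS libraries (SD, n = 3 per group), and Zbtb46, a factor of classical dendritic cells, at 82.5 ± 19.9 and 60.5 ± 22.5 FPKM. Both were lower in FSS in every pair, as were 47.3% of all genes tested. H2-Ab1, of class II, was at 1030 ± 75.6 in static and 1100 ± 129 FPKM in FSS libraries. The summed level of all 6 dendritic cell markers overlapped, at 6090 to 7040 FPKM in static and 5620 to 7030 FPKM in FSS libraries. The class II gene Cd74 was at 4178 to 5319 FPKM, while the dendritic cell marker Flt3 stayed under 1 FPKM in all 6 libraries. The summed level of 5 macrophage and monocyte markers was 239 to 265 FPKM in static and 253 to 348 FPKM in FSS libraries, and that of 6 neutrophil markers was 258 to 434 and 215 to 345 FPKM. Low summed levels were read for 4 T and NK cell markers (0.73 to 3.11 and 0.85 to 1.99 FPKM; Cd3e, Cd3g and Ncr1 under 1 FPKM in every library) and for 3 mast cell and basophil markers (1.24 to 4.17 and 1.34 to 4.36 FPKM; Ms4a2 under 1). The sums were 2.03 to 4.66 and 1.69 to 3.66 FPKM for 3 B cell markers, and at most 0.12 and 0.34 FPKM for 3 erythroid markers. The part of these markers' cells in the results was not tested. In bulk RNA, fewer cells of a type and less RNA per cell cannot be told apart. The 2 libraries numbered 3 stood apart from the other 4. What set each apart from its group mean was alike over genes between the 2 (Pearson 0.866). It was opposite to numbers 1 and 2 of the other group (-0.781 to -0.537). Part of that opposition follows from the calculation, as the deviations within a group sum to 0. Number 1 of one group and number 2 of the other gave 0.216 and 0.279.

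The promoters of the subunit genes were read for the letters of the heat shock element, the site of the factor HSF1, because chaperone genes of other families rose under FSS. RefSeq promoter sequences (GRCm38.p6, 250 bases before to 50 after the start) were at hand for 7 of the 8 genes, Cct4 being the one not analysed here. The searched motifs were the paired forms GAANNTTC and TTCNNGAA and the triple forms, in which a paired form is followed by NN and by its own first 3 letters again. Each paired form reads the same on both strands, the triple forms are each other's reverse complement, and every triple form contains both paired ones. The sequences are shown 5′ to 3′ on the gene's strand, with matches in capitals. The first shown are those of the subunit genes with the largest differences and of Cct5, the most abundant one, and the last is that of Hspe1 (HSP10) as the contrast.
Cct6a, chr5:129787106-129787405, plus strand: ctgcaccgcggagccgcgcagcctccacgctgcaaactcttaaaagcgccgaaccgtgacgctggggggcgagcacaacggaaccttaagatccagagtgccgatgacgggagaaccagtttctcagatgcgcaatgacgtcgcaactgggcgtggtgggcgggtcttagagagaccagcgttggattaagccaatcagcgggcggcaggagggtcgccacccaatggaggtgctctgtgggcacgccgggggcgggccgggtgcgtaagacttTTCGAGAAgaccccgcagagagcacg
Cct3, chr3:88296885-88297184, plus strand: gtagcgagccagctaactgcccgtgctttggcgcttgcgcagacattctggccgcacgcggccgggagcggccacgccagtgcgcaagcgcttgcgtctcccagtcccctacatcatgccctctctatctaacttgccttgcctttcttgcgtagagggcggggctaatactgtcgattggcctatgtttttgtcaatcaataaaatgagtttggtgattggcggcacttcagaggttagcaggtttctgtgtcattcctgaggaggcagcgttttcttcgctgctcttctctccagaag
Cct5, chr15:31601797-31602096, minus strand: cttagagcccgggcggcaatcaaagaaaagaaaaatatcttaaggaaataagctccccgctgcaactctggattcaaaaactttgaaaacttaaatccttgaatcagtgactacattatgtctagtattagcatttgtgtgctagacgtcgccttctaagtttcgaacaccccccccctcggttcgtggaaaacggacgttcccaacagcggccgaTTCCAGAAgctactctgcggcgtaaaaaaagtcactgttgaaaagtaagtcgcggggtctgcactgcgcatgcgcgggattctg
Hspe1, chr1:55087898-55088197, plus strand: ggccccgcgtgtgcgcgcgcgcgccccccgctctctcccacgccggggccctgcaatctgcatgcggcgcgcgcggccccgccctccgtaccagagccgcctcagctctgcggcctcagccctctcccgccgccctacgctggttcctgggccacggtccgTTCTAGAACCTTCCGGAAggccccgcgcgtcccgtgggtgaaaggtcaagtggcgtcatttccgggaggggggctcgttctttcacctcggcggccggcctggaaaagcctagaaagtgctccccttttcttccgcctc

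No triple form was found in the promoters of the 7 subunit genes, against 0.662% of 27025 genes in the promoter table with at least 1. With so small a share over all genes, 0 of 7 says little about the subunit genes. A paired form was found in 3 of the 7 (42.9%), against 17.0% of all genes. In Cct6a it was TTCGAGAA, starting at base 25 after the start of transcription. In Cct5 it was TTCCAGAA at base -34, and in Cct2 it was GAAGTTTC at base -42 of the second start listed in RefSeq. Cct3, Tcp1, Cct7 and Cct8 held none in their windows. The Hspe1 window held both triple forms from base -89 on. A window of Hspd1 (HSP60), which lies head to head with Hspe1, covers the same letters on the other strand. A match describes letters only and is not evidence of a bound factor.

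Of the subunit genes, none passed between FSS and static libraries in the test that leaves the replicate numbers aside. The count was 0 of 8 (limma on log2(FPKM + 1), Benjamini-Hochberg adjusted p under 0.05), where 1.72% of all genes tested were called (0.853% higher and 0.862% lower). At an unadjusted p under 0.05 the count was 2 of 8, both lower, against 1969 of 10899 genes in either direction. The replicate numbers 1 to 3, carried by both groups, pair the libraries in these data although the labels do not say what a number shares. With the number as a block, Cct3 and Cct6a fell (2 of 8) and none rose, against 25.1% of all genes called lower and 7.73% called higher (32.9% in either direction). The share of members that fell is thus near that of all genes, and the count is no result about the chaperonin as a group. When each library was also scaled by the median of its ratios to the geometric mean, 2 members rose (Cct4 and Cct7) and the same 2 fell, against 19.6% of genes called higher and 16.3% lower (35.9% in either direction). The median difference of the 8 genes was -0.069 on the log2 scale and that of all genes tested was -0.12.

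**Figure D1:**
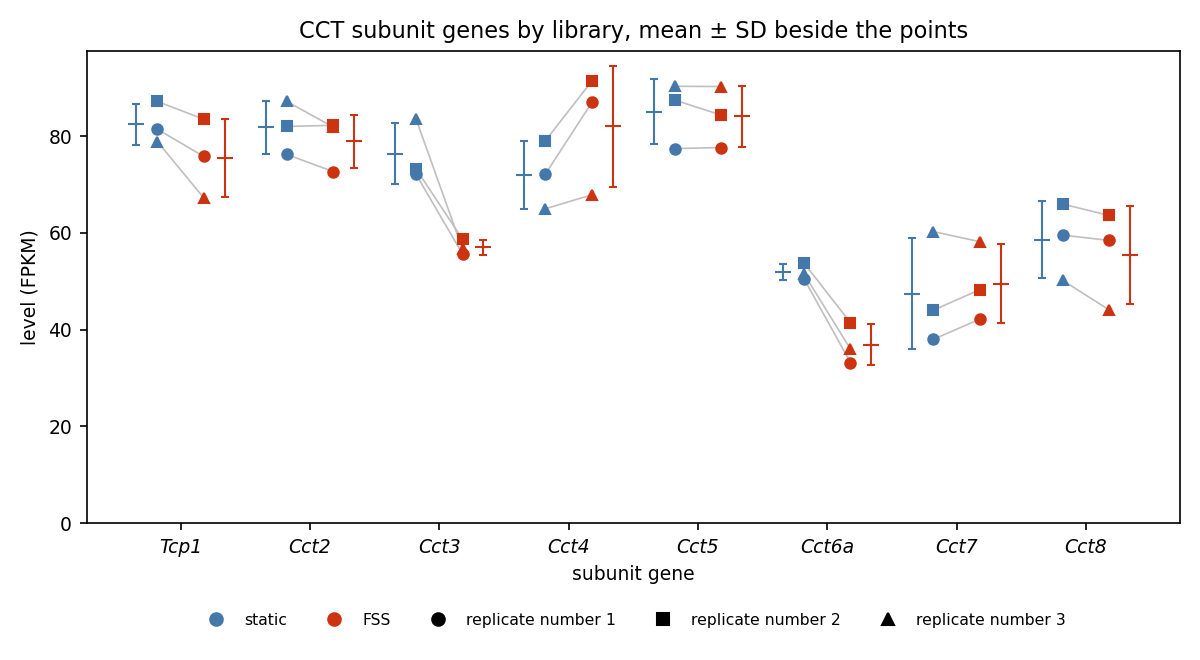
Level of each subunit gene (FPKM, vertical axis) in each of the 6 libraries, static in blue and FSS in red, with lines joining libraries of one replicate number and mean ± SD (n = 3) beside the points. Cct3 and Cct6a are the 2 genes whose groups do not overlap, both lower under FSS.

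Cct6a, the gene of the zeta subunit (gene ID 12466), showed the largest difference. It was read at 50.56, 53.78 and 51.56 FPKM in static replicates 1, 2 and 3 and at 33.19, 41.44 and 35.97 FPKM in the FSS replicates. Every FSS library lay below every static one. The means were 52.0 ± 1.65 and 36.9 ± 4.2 FPKM (SD, n = 3 per group), a ratio of 0.709. The log2 difference was -0.49 ± 0.159 (SE) with an adjusted p of 0.161 in limma, and of 0.00705 with the replicate block. In the pairs 1, 2 and 3 the difference was -0.59, -0.37 and -0.51. Median-ratio scaling brought the log2 difference to -0.32, with adjusted p-values in limma of 0.31 without and 0.0229 with the block.

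Cct3, the gene of the gamma subunit (gene ID 12462), stood at 72.14, 73.28 and 83.6 FPKM in static libraries. In the FSS libraries it was at 55.65, 58.69 and 56.67 FPKM, a narrow range under all of the static values. The means were 76.3 ± 6.31 and 57.0 ± 1.55 FPKM (SD, n = 3 per group), a ratio of 0.747. The log2 difference of -0.41 ± 0.153 (SE) had an adjusted p of 0.206 in limma and of 0.0124 with the block. After median-ratio scaling it was -0.25, with adjusted p-values in limma of 0.496 without and 0.0467 with the block. Cct3 and Cct6a were the 2 of 8 members with groups that did not overlap, which was so for 25.5% of all genes tested (20.4% lower, 5.1% higher). With the block, both passed when any one pair of libraries was left out, at adjusted p-values in limma of 0.0126 to 0.0444 for Cct3 and 0.00501 to 0.0491 for Cct6a.

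Cct4, the gene of the delta subunit (gene ID 12464), was the one member higher in all 3 pairs. Its static values were 72.12, 79.03 and 64.98 FPKM and its FSS values 86.96, 91.38 and 67.88 FPKM. The groups overlap because the FSS library numbered 3 lay below 2 static ones. The log2 difference was 0.18 ± 0.181 (SE), with adjusted p-values in limma of 0.689 without and 0.148 with the block. Of all genes tested, 17.1% were higher in all 3 pairs. Without the libraries numbered 3, Cct4 passed with the block (0.24 log2, adjusted p = 0.0494 in limma), where 14.3% of genes were called higher. With the block and libraries scaled by their median ratio it passed too (0.34 log2, adjusted p = 0.0131 in limma).

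Tcp1 and Cct8 were a little lower in each pair and did not pass. Tcp1, the gene of the alpha subunit (gene ID 21454), was at 81.44, 87.18 and 78.89 FPKM in static and 75.8, 83.5 and 67.23 FPKM in FSS libraries. Cct8, the gene of the theta subunit (gene ID 12469), was at 59.54, 65.97 and 50.2 FPKM and then 58.45, 63.61 and 44.08 FPKM. The groups overlapped for both genes. Of all genes tested, 47.3% were lower in all 3 pairs, and 4 of the 8 members were (Tcp1, Cct3, Cct6a and Cct8). The log2 differences of -0.13 and -0.087 had adjusted p-values in limma of 0.752 and 0.883, or 0.266 and 0.467 with the block.

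Cct5, Cct2 and Cct7, which encode the epsilon, beta and eta subunits, gave the smallest differences. Cct5 (gene ID 12465) was at 77.43, 87.47 and 90.31 FPKM in static and 77.65, 84.36 and 90.26 FPKM in FSS libraries. Each FSS value of Cct5 was close to that of the same number, and the log2 difference was -0.016. Cct2 (gene ID 12461) was at 76.23, 82.01 and 87.19 FPKM and at 72.68, 82.24 and 81.9 FPKM, a log2 difference of -0.051. Cct7 (gene ID 12468) was at 37.99, 44.02 and 60.28 FPKM and at 42.17, 48.26 and 58.18 FPKM, a log2 difference of 0.075. All 3 overlapped between the groups, and their adjusted p-values in limma were 0.971, 0.915 and 0.912. With the block they were 0.888, 0.657 and 0.547. Cct7 rose with the block and median-ratio scaling together (0.24 log2, adjusted p = 0.0477 in limma).

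These misses of the threshold do not show equal levels, and the 95% confidence intervals give what the data allow. Without the block the upper bounds of the 8 intervals ran from -0.12 (Cct6a) to 0.6 (Cct4) on the log2 scale. With the block they ran from -0.28 (Cct6a) to 0.38 (Cct4). The lower bounds without the block ran from -0.86 (Cct6a) to -0.24 (Cct4). The interval of Hspd1 was 0.73 to 1.87 and that of Hspe1 0.78 to 1.6, above the upper bounds of all 8 subunit genes. The difference between these genes and the subunit genes was itself not tested.

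**Figure D2:**
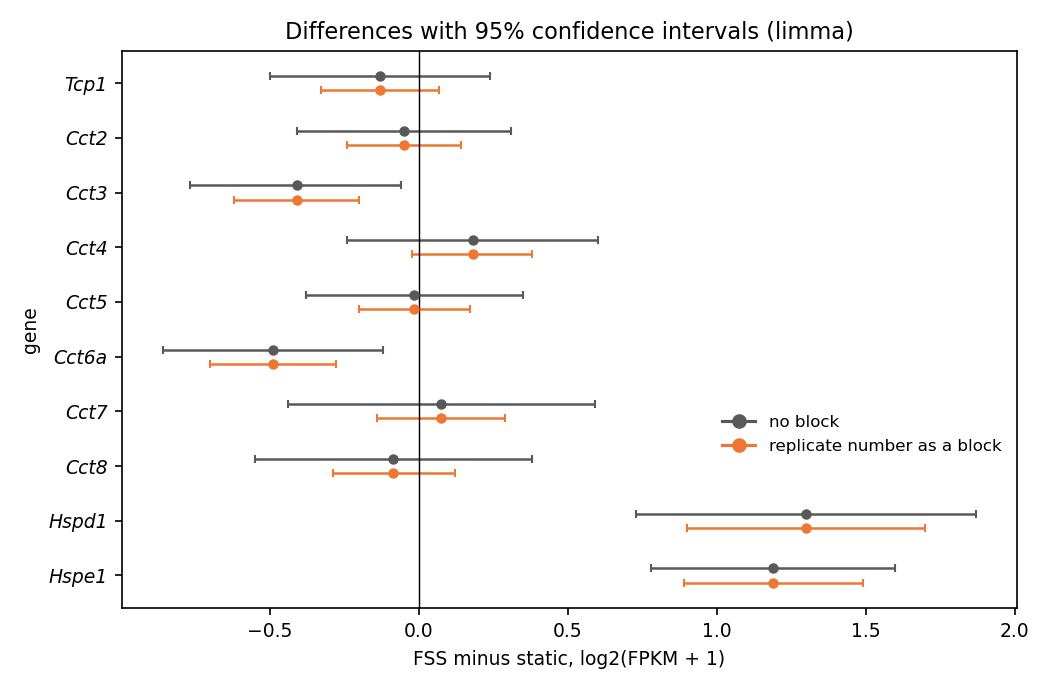
FSS minus static difference on the log2(FPKM + 1) scale (horizontal axis) for the 8 subunit genes and for Hspd1 and Hspe1, with 95% confidence intervals from limma without a block (grey) and with the replicate number as a block (orange). The intervals of Cct3 and Cct6a lie below 0, those of the other 6 subunit genes include 0, and those of Hspd1 and Hspe1 lie above 0.7.

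The 8 levels lay within a narrow range of each other. In the static libraries the highest member was 1.8 to 2.14 times the lowest, and in the FSS libraries 2.21 to 2.62 times. By mean FPKM the static order was Cct5 (85.1), Tcp1 (82.5), Cct2 (81.8), Cct3 (76.3), Cct4 (72.0), Cct8 (58.6), Cct6a (52.0) and Cct7 (47.4). Every neighbour in that order overlapped the next over the 3 libraries. Under FSS the order was Cct5 (84.1), Cct4 (82.1), Cct2 (78.9), Tcp1 (75.5), Cct3 (57.0), Cct8 (55.4), Cct7 (49.5) and Cct6a (36.9). There the ranges parted at 2 places, between Tcp1 and Cct3 and between Cct7 and Cct6a. Cct6a was the lowest member in each FSS library and in no static one.

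A member's share of the summed FPKM of the 8 genes does not depend on how a library is scaled. The sum was 527, 573 and 567 FPKM in static and 503, 553 and 502 FPKM in FSS libraries. Cct6a made up 9.59, 9.39 and 9.09% of it in static and 6.6, 7.49 and 7.16% in FSS libraries. For Cct3 the shares were 13.7, 12.8 and 14.7% and then 11.1, 10.6 and 11.3%. The groups parted for these 2 genes, each with an exact two-sided permutation p of 0.1, the smallest that 3 against 3 libraries can give. The share of Cct4 went the other way, from 13.7, 13.8 and 11.5% to 17.3, 16.5 and 13.5%, higher in each pair but with groups that overlapped. Shares are parts of one whole, so smaller shares of Cct3 and Cct6a by themselves raise those of the other genes. The shares of the remaining 5 genes differed by -0.339 (Tcp1) to 1.06 (Cct7) percentage points, and all of them overlapped. The ratio of Cct4 to Cct6a, taken up after the values were seen, was 1.43, 1.47 and 1.26 in static and 2.62, 2.21 and 1.89 in FSS libraries.

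**Figure D3:**
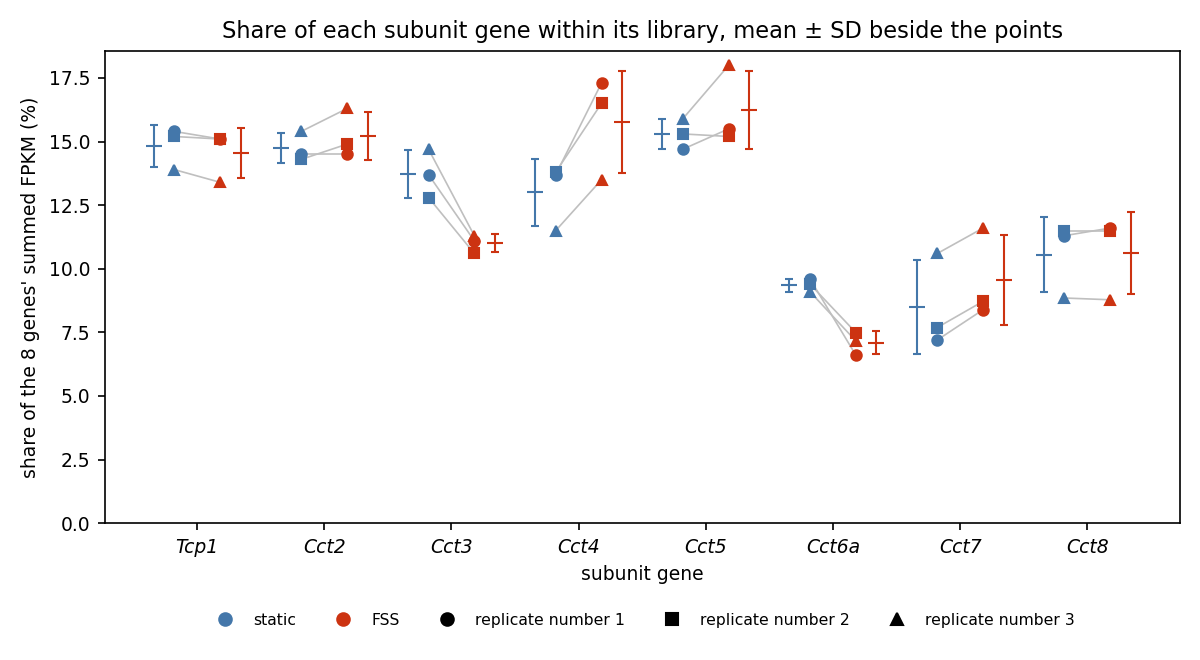
Share of each subunit gene in the summed FPKM of the 8 genes (%, vertical axis) by library, static in blue and FSS in red, lines joining libraries of one replicate number, with mean ± SD (n = 3) beside the points. Cct3 and Cct6a take a smaller share in each FSS library than in any static one, and Cct4 a larger share in each pair.

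The libraries numbered 3 also differed in some subunit genes, in a contrast taken up after the values were seen. With the group in the model, Cct7 was higher in number 3 than in numbers 1 and 2 by 0.45 ± 0.124 log2 (SE; adjusted p = 0.0194 in limma). Cct8 was lower by -0.39 ± 0.113 (adjusted p = 0.025), and Cct4 gave -0.3 ± 0.11 (adjusted p = 0.0548). The remaining 5 gave -0.17 to 0.14, with adjusted p-values of 0.245 or more in limma. Thus 1 of 8 was called higher and 1 lower, against 13.7% and 29.3% of all genes tested. Cct3 and Cct6a gave 0.093 and -0.03 in this contrast.

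Both genes of the mitochondrial chaperonin rose under FSS. Hspd1, which encodes HSP60, the ring of the group I chaperonin, was at 53.01, 75.24 and 57.45 FPKM in static and 199.06, 155.23 and 113.35 FPKM in FSS libraries. Its lid HSP10, encoded by Hspe1, was at 53.62, 63.44 and 61.59 FPKM and then 156.21, 115.65 and 141.84 FPKM. All FSS libraries lay above all static ones for both genes, and the means rose 2.52-fold and 2.32-fold (limma adjusted p = 0.0487 and 0.0299; 0.00231 and 0.00122 with the block). Without the block both calls were lost when any library other than FSS replicate 3 was left out (adjusted p of 0.129 to 0.198 for Hspd1 and 0.0865 to 0.162 for Hspe1 in limma). They were also lost without the filter on low values (0.101 and 0.0573), and that of Hspd1 at a pseudocount of 0.1 (0.0513) and with totals made equal (0.066). Calls over all genes fell too, from 93 higher to between 3 and 27 with 1 of those libraries left out. Without the filter 14 of all genes were called higher. In the static libraries Hspd1 stood above 2, 4 and 2 of the 8 subunit genes, and in each FSS library above all 8.

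The cytosolic heat shock list held 21 genes, of which 20 were tested. Of these 12 rose and none fell, against 0.853% of all genes called higher. With the block 17 rose, against 7.73% of all genes. The list median was 1.23 log2, against -0.12 over all genes. When 1 library other than FSS replicate 3 was left out, 2 to 5 rose, where 3 to 27 of all genes were called higher. Without FSS replicate 3, 14 rose, against 254 of all genes. Without the filter on low values 5 rose, against 14 of all genes. Hspb1, a small heat shock protein, was at 0.24, 0.37 and 0.35 FPKM in static and 24.34, 11.48 and 25.55 FPKM in FSS libraries. Hsph1, the exchange factor HSP110, was at 33.78, 48.31 and 30.02 FPKM and then 380.09, 233.5 and 200.82 FPKM. Dnajb1, an HSP40 partner of HSP70, and Stip1, which links HSP70 to HSP90, were picked with their values known, and they rose 3.08-fold and 2.33-fold (limma adjusted p = 0.0153 and 0.0242). Hspa1a and Hspa1b, whose near-identical sequences divide reads uncertainly, rose as well (limma adjusted p = 0.00402 for each). A paired form of the heat shock element was found in 10 of the 17 genes of this list with a promoter sequence (58.8%, against 17.0% of all genes), and a triple form in 2 of the 17 (11.8%, against 0.662%). Most genes of this list thus held no triple form in their windows either.

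Other genes related to the subunits were few and lay below all 8 subunit genes in level. Cct6b, the testis relative of Cct6a, was at most 0.43 FPKM and Cct8l1 at most 0.08 FPKM, and neither was tested. In the unscaled values of all 6 libraries, none of the 3 chaperonin-like genes of Bardet-Biedl syndrome passed without the block, and Bbs10 rose with it. Without the block, 1 of the 3 was called higher with median-ratio scaling and again without FSS replicate 3. Of all genes, 154 of 10871 and 254 of 10819 were then called higher. Bbs10 was at 0.93, 1.65 and 0.88 FPKM in static and at 5.0, 5.04 and 2.37 FPKM in FSS libraries (limma adjusted p = 0.0684 without and 0.00191 with the block). All its FSS values lay above all static ones. Mkks gave 9.24 ± 0.531 and 7.57 ± 1.08 FPKM (SD, n = 3 per group; limma adjusted p = 0.454). Its FSS values all lay under its static ones, as did those of 20.4% of all genes tested.

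TRiC works with prefoldin and phosducin-like proteins. Of 12 tested prefoldin subunits, prefoldin-like proteins and phosducin-like proteins, none passed without the block, and with it 5 fell and none rose, against 25.1% and 7.73% of all genes. The list median was -0.36 log2, against -0.12 over all genes. Pdcl, the phosducin-like protein that helps to assemble G protein beta subunits on TRiC, was at 6.56, 7.01 and 6.76 FPKM in static and 4.24, 3.88 and 4.17 FPKM in FSS libraries. Pfdn4, a prefoldin subunit, was at 8.23, 8.59 and 8.08 FPKM and then 4.61, 5.83 and 4.63 FPKM. Neither gene overlapped between the groups, and their adjusted p-values in limma were 0.0783 and 0.0882 without the block and 0.00399 and 0.00385 with it. The others that fell with the block, named after their values were seen, were the prefoldin gene Vbp1, the prefoldin-like gene Pdrg1 and the phosducin-like gene Txndc9. With the block and median-ratio scaling 4 fell, without Vbp1 (adjusted p = 0.107 in limma), against 16.3% of all genes called lower.

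Actins and tubulins are the main clients. With all 6 libraries, none of 12 tested genes passed without the block. With the block 9 fell and Tubb2b rose, against 25.1% of all genes called lower and 7.73% higher. With median-ratio scaling added, 6 fell and 1 rose, against 16.3% and 19.6% of all genes. When FSS replicate 3 was left out, 2 of the 12 fell without the block, against 161 of 10819 genes. Tubb4b, a beta tubulin, was at 39.77, 53.5 and 74.52 FPKM in static and 12.36, 23.37 and 25.03 FPKM in FSS libraries. Tuba1c, an alpha tubulin, was at 74.15, 68.41 and 118.88 FPKM and then 25.02, 30.78 and 48.43 FPKM. Their FSS values all lay under their static ones (limma adjusted p = 0.073 and 0.0785 without and 0.000623 with the block for each). Actb and Tubb5 were picked with their values known. Actb, the beta actin gene, had an adjusted p of 0.00339 in limma in the blocked fit and 0.157 once scaling was added to it. Tubb5, a beta tubulin, was at 156.87, 207.92 and 246.95 FPKM and at 153.41, 210.99 and 248.42 FPKM, close to equal in each pair. Tubulin genes are similar in sequence, so the assignment of reads among them is uncertain.

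Of 16 clients with WD40 repeats and other clients, none passed without the block, and 5 fell with it (Hdac3, Mlst8, Gnb2, Gnb4 and Plk1, the last 3 named after their values were seen), a share near the 25.1% of all genes called lower. With scaling added, 4 fell without Gnb2 (adjusted p = 0.204 in limma), and Vhl rose (0.0481). Hdac3, a histone deacetylase, gave 15.4 ± 1.19 and 11.2 ± 1.38 FPKM, and Mlst8, an mTOR partner, 4.47 ± 0.504 and 3.15 ± 0.239 FPKM (SD, n = 3 per group). Their adjusted p-values in limma were 0.215 and 0.218, or 0.0124 and 0.0182 with the block. Of 5 tubulin cofactors, which take over tubulin after TRiC, none passed without the block, and with it Tbcc alone fell, 1 of 5 against 25.1% of all genes. Its values went from 3.61, 3.58 and 4.57 to 1.72, 2.12 and 2.22 FPKM (limma adjusted p = 0.0781 without and 0.00307 with it). Tbcd gave 14.4 ± 3.93 and 11.3 ± 2.13 FPKM (adjusted p = 0.533 in limma).

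**Figure D4:**
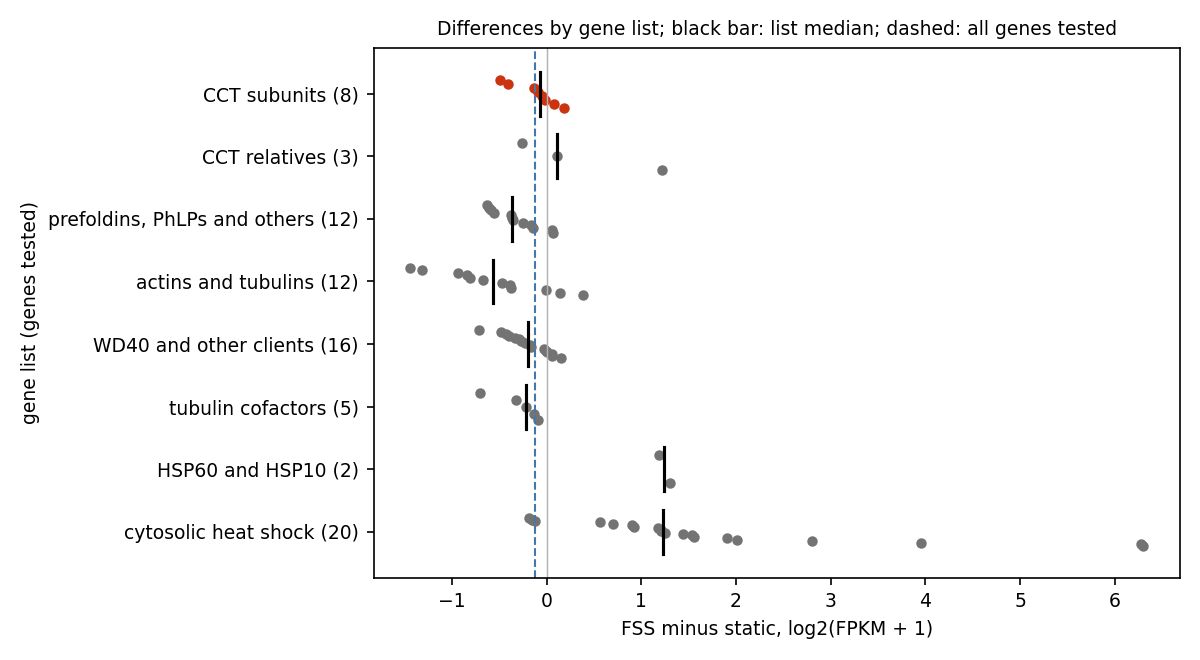
FSS minus static difference on the log2(FPKM + 1) scale (horizontal axis), without the block, for the tested genes of each list (vertical axis, with the number tested), with black bars at list medians and a dashed line at the median of all genes tested. PhLPs are phosducin-like proteins. The 8 subunit genes (red) lie between -0.49 and 0.18, while the heat shock list has its median at 1.23.

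Neighbouring genes overlap several subunit genes, and without knowledge of strand the reads of the shared bases cannot be told apart. Mrpl18 and Acat3 overlap the span of Tcp1 by 1459 and 1238 bases in RefSeq (GRCm38.p6). Psph overlaps Cct6a by 88 bases, Pradc1 overlaps Cct7 by 483 and Usp16 overlaps Cct8 by 191. Mrpl18 had means of 21.5 FPKM in static and 19.9 FPKM in FSS libraries, and Usp16 of 16.2 and 14.9 FPKM. Acat3 was at most 0.68 FPKM. Usp16, like Cct8, was lower in number 3 than in numbers 1 and 2 (-0.59 log2, adjusted p = 0.00712 in limma). The part of these genes in the values of Tcp1 and Cct8 was not tested. Psph, an enzyme of serine synthesis, was at 1.72, 1.83 and 3.58 FPKM in static and 2.03, 2.28 and 2.45 FPKM in FSS libraries, far under Cct6a and with overlapping groups. Its adjusted p was 0.984 in limma. Pradc1 was at 2.65, 4.94 and 5.56 FPKM and at 4.55, 5.76 and 6.89 FPKM, and it rose with the block (adjusted p = 0.0484 in limma), while Cct7 beside it did not pass. Its part in the values of Cct7 was not tested. RefSeq also lists the pseudogenes Tcp1-ps1 and Cct3-ps1, neither with values here, so the division of reads for Tcp1 and Cct3 is uncertain. Pseudogenes of the 8 genes under other kinds of name were not searched for.

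The pattern of the 8 genes over the libraries was summarised as their mean log2(FPKM + 1), which was 6.03, 6.15 and 6.13 in static and 5.93, 6.08 and 5.94 in FSS libraries. Among 5531 genes with a mean of at least 10 FPKM, the 6 most like it over the 6 libraries were Ubl5, Sirt7, Etfa, Marchf6, Dcaf12 and Prkar2a. Their Pearson correlations with it were 0.992 to 0.975 and describe only 6 libraries that share the group and the replicate number. None of the 6 passed the test between the groups, with adjusted p-values in limma of 0.466 to 0.79.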

How the data were processed

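RNA of 6 libraries, 3 static and 3 FSS by the submitters' sample titles, was analysed. HISAT and Bowtie2 are named in the submitters' processing notes, without version or role. For the quantifier, the genome build, the annotation and the use of strand, the sources used here give nothing. The authors deposited 1 table of 22899 genes and 1 file per sample, with the same values in all 6 libraries. Per the file headers no unit is named. The deposited values were read as FPKM, because their sum weighted by transcript length (GENCODE) was 0.552 to 0.609 (median length) or 1.14 to 1.28 (longest) of what FPKM imply. Values were blank for 4828 genes, which left 18071. Depth per sample is unknown.

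A gene was tested when 3 or more libraries read 1 FPKM or higher. The difference FSS minus static of log2(FPKM + 1) was fitted by limma 3.58.1 (R 4.3.3) with a mean-dependent variance, two-sided. Adjustment (Benjamini-Hochberg) ran over all genes tested, at a threshold of 0.05. Ratios are of mean FPKM. The fit was tested on simulated data that had the replicate number effects of these libraries built in, so that test cannot bear on the pairing. Deviations from group means correlated between libraries of one replicate number (Pearson 0.792, 0.664 and 0.866 for numbers 1, 2 and 3), which was taken as pairing read from these data, not from the labels. A second fit therefore had the number as a block.

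The members, the gene lists and the tests were chosen with earlier results of these data known. Named genes are the 8 members, from each list the members that passed (up to 4 by smallest adjusted p, or the 2 smallest where none passed), and the 6 genes most like the members' mean. The lists were the subunits, chaperonin relatives, TRiC partners, the group I chaperonin, actin and tubulin clients, other clients, tubulin cofactors, cytosolic heat shock genes and cell type markers. The alternatives tried were the block, 2 scalings, a threshold of 0.01, no filter, a pseudocount of 0.1, and libraries or pairs left out.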

Additional observations from a re-analysis of the deposited data

How the results depend on the processing

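Without the block, the count of subunit genes called was 0 higher and 0 lower under every setting tried. The settings were both scalings, a threshold of 0.01, no filter, a pseudocount of 0.1, and each single library left out. Few of all genes were called there, with 4 higher and 1 lower of 10899 at the threshold of 0.01. All genes gave 14 and 7 of 17202 without the filter, and 3 and 0 of 10788 without static replicate 1. The most were 254 and 161 of 10819, without FSS replicate 3. With so few calls, 0 among the subunit genes says little about how stable their result is. The replicate block gave 0 higher and 2 lower, against 842 and 2739 of 10899 genes. With median-ratio scaling the block gave 2 higher and 2 lower, against 2129 and 1772 of 10871. With totals made equal it gave 0 and 2, against 1172 and 2310 of 10901. Without the libraries numbered 3 the block gave 1 higher and 2 lower, against 1526 and 2608 of 10651. Leaving out those numbered 1 or 2 was chosen after seeing the data, and gave 0 and 2 each time. All genes then gave 445 and 1626 of 10501 without number 1, and 519 and 1936 of 10373 without number 2. These counts are no result about the subunits as a group. Cct3, Cct4 and Cct6a kept their direction under both scalings, at a pseudocount of 0.1 and with each library or pair left out; a threshold, the filter and the block leave these log2 differences as they are.

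The small differences turned sign under some settings, none of these values past the threshold. With median-ratio scaling, with or without the block, the log2 differences were 0.036 (Tcp1), 0.12 (Cct2), 0.15 (Cct5) and 0.078 (Cct8). With totals made equal, with or without the block, they were 0.014 (Cct2) and 0.049 (Cct5). With the block and without the libraries numbered 2, Cct5 gave 0.0016. Leaving out single libraries gave -0.1 to 0.0066 for Cct2, -0.082 to 0.039 for Cct5, -0.068 to 0.26 for Cct7 and -0.19 to 0.066 for Cct8. The cause was not tested. Median-ratio scaling moved the median of all genes from -0.118 to 0.0259, and with the block 2129 genes were then higher and 1772 lower, against 842 and 2739 without the scaling. The FPKM carry no read counts, so depth sets an unknown limit on differences of this size.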
